A study of Homo sapiens with 4 samples.

Results

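DDC, TH, TPH1, TPH2, DBH, MAOA, MAOB, SLC18A1 and SLC18A2 are the genes that make, package and break down the monoamines, and all 9 were read on 4 Affymetrix arrays of the prostate cancer cell line LNCap. Their members on the array are the probe sets annotated to these symbols and to no other gene, 17 of the 51965 in the table, or 9 of the 19583 genes that have a probe set of their own. No probe set named a member together with another gene. The group was chosen by a measured value, the rise of DDC in the arrays labelled LNCap ERG, and the other 8 genes were added for their function. The difference of the members between the groups is therefore given as a description, and where the fit over all genes counts a member as called, nothing is read from it.

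RNA came from LNCap cells, also written LNCaP, an established androgen-responsive line from human prostate tumor. The cells were transduced with a lentivirus that carries ERG together with red fluorescent protein (2 arrays, LNCap ERG) or the fluorescent protein alone (2 arrays, LNCap Vector), grown in the usual medium and left overnight after seeding before total RNA was taken. The comparison asks what expression of ERG, an ETS transcription factor, changes in these cells. The sources do not state if both arrays in a group stem from separate transductions or cell cultures, so a p-value here covers array-to-array spread alone, and that may be technical. A bulk measurement cannot tell fewer cells with a transcript from less of it per cell. The 4 probe sets of ERG itself read log2 intensities of 2.65 to 3.58 across the arrays, and their differences ran from -0.24 to 0.12 on that scale, so they do not check the labels, and whether they can read the transduced ERG was not tested. All 10 measured of 12 luminal prostate markers, KLK3, FOLH1 and HOXB13 among them, lay above the level of genes that prostate cells do not use, in both groups. Of 10 measured markers of other cell types, COL1A1 and ACTA2 lay above it, and the summed linear intensity of the 10 was 539 to 580 in the LNCap ERG arrays and 451 to 460 in the LNCap Vector arrays, most of it from COL1A1. The part of these markers in the results was not tested.

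Monoamines are signalling molecules made from aromatic amino acids. Tyrosine hydroxylase (TH) makes L-DOPA from tyrosine and the tryptophan hydroxylases (TPH1 outside the brain, TPH2 in neurons) make 5-hydroxytryptophan, the rate-limiting steps. DDC, the aromatic L-amino acid decarboxylase, turns these products into dopamine and serotonin, and DBH turns dopamine into noradrenaline. The vesicular transporters SLC18A1 and SLC18A2 load the amines into secretory vesicles, and the mitochondrial oxidases MAOA and MAOB break them down. In the prostate DDC is known as a neuroendocrine marker and as a protein that binds the androgen receptor.

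DDC is known to be transcribed from alternative first exons in neuronal and in non-neuronal tissues, and the RefSeq annotation of GRCh38.p14 gave it 2 starts. The 250 bases before each are shown, because DDC is the member with the large difference and ETS factors bind sites with the core GGAA. Capitals mark GGAA and its reverse complement TTCC. The distal window is chr7:50565406-50565655 and the proximal window chr7:50561072-50561321, both read on the minus strand from 5′ to 3′.
DDC distal start: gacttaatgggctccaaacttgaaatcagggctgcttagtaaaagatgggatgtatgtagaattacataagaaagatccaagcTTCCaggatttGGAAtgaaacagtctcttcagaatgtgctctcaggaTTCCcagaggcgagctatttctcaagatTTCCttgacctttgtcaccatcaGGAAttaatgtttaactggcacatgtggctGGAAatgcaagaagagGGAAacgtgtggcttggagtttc
DDC proximal start: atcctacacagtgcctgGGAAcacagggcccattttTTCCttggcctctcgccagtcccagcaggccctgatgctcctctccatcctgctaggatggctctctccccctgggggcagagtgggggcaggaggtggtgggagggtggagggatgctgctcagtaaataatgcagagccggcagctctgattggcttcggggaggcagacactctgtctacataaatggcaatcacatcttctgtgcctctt

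The distal window held 7 matches (4 GGAA and 3 TTCC) and the proximal window 2 (1 of each). Of the 35116 windows of this length in the promoter table, 92.7% held at least 1 match, the median window held 3, and 4.1% held 7 or more. The longer forms AGGAAG and CGGAAG, searched on both strands and overlapping the core, occurred in 40.8% of all windows and in neither DDC window. Windows of 7 of the 9 members were found, 8 windows in all, and outside DDC they held 0 to 3 core matches, with 3 at SLC18A2, 2 at DBH, 1 each at MAOA and MAOB and 0 at TPH1 and TPH2. A match is a run of letters and not a binding site. The arrays do not tell which start a transcript came from.

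DDC rose in its bright probe set and not in its dim one. At 205311_PM_at the linear intensity was 801 and 799.9 on the LNCap ERG arrays and 247 and 239 on the LNCap Vector arrays. On the log2 scale, used from here on, the means were 9.64 ± 0.0012 and 7.92 ± 0.03 (SD, n = 2 in each group), so that the log2 fold change was 1.72 with a standard error of 0.09, or 3.30-fold. Log2 fold changes are given below as differences, LNCap ERG minus LNCap Vector, each ± its standard error. Both LNCap ERG arrays lay far above both LNCap Vector arrays, and the arrays within a group differed by at most 0.048. The other DDC probe set, 214347_PM_s_at, of the kind whose probes can match more than 1 transcript, read 2.69 and 2.74 on the LNCap ERG arrays and 2.76 and 2.56 on the LNCap Vector arrays. There the groups overlapped, with a difference of 0.06 ± 0.11. The files hold no probe positions, so the part of the transcript that each probe set reads is not known here.

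The level of unused genes was set with 36 measured genes of other organs, such as pancreas, heart, eye and pituitary. Their median log2 intensity was 3.32 and their 95th percentile, termed the background limit, 4.72. At or below it lay 61.7% of all probe sets. Of the 17 member probe sets, 4 lay above it in both groups, namely the bright probe set of DDC and the 3 of MAOA. The remaining 13, which belong to 8 genes, read 2.54 to 3.85 over all arrays. For these a difference between groups is a measured value near background and gives no size of a change in RNA.

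**Figure D1:**
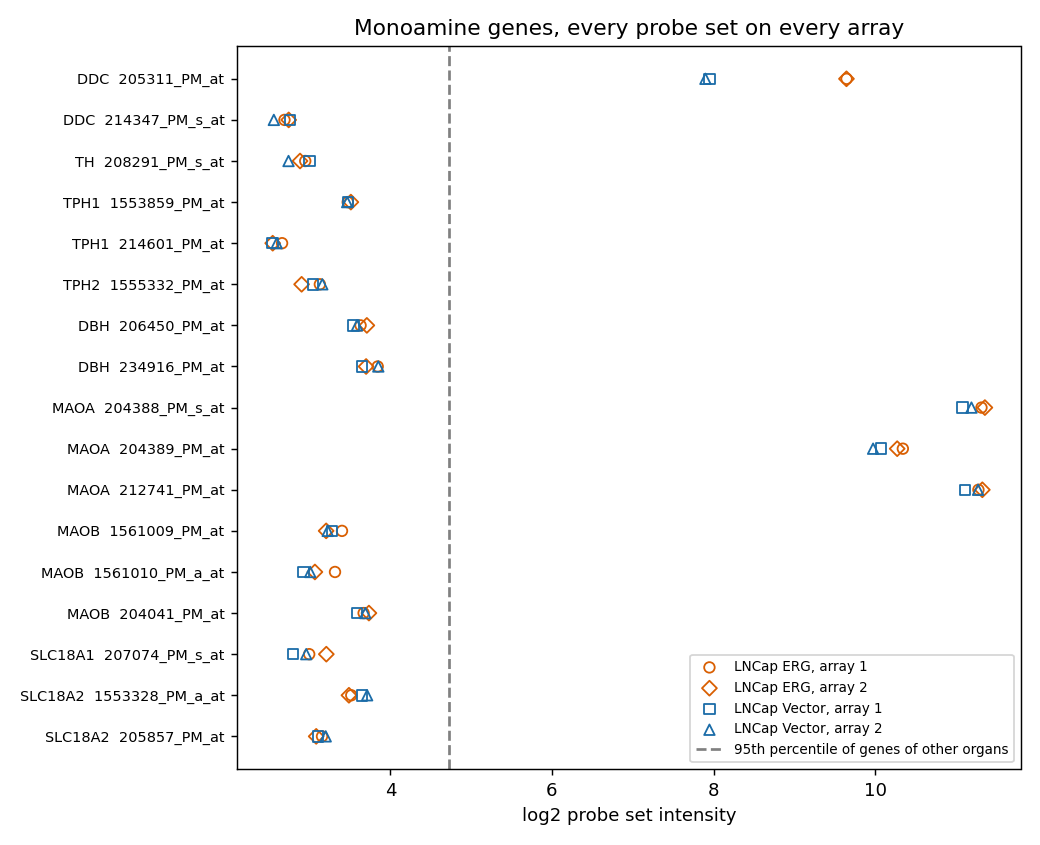
Intensity on the log2 scale (x axis) of all 17 member probe sets (y axis, gene and probe set). Circles and diamonds are the 2 LNCap ERG arrays, squares and triangles the 2 LNCap Vector arrays, with a dashed line at 4.72, the background limit. The first DDC probe set and the 3 of MAOA lie to its right, and the groups stand clearly apart at DDC.

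The hydroxylases that come before DDC, and DBH after it, were all at the level of unused genes. TH, read by 1 probe set, was at 2.95 and 2.88 on the LNCap ERG arrays and at 2.997 and 2.74 on the LNCap Vector arrays (difference 0.05 ± 0.12). The LNCap Vector arrays spanned both LNCap ERG arrays, and the sign turned without the second LNCap Vector array (-0.08). The brighter TPH1 probe set, 1553859_PM_at, read 3.47 and 3.51 on the LNCap ERG arrays against 3.48 and 3.47 on the LNCap Vector arrays, and the dimmer one, 214601_PM_at, 2.66 and 2.54 against 2.54 and 2.59. Their log2 fold changes were 0.02 and 0.03 (standard error 0.09 each), and the groups overlapped at both.

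TPH2 was at 3.13 and 2.90 on the LNCap ERG arrays and at 3.04 and 3.16 on the LNCap Vector arrays (difference -0.09 ± 0.11), also with overlap. DBH has 2 probe sets. At 234916_PM_at the LNCap ERG arrays read 3.84 and 3.70 and the LNCap Vector arrays 3.65 and 3.85, a difference of 0.02 ± 0.11 with overlap. At 206450_PM_at they read 3.63 and 3.71 against 3.54 and 3.59, where the groups did not overlap and the difference was 0.10 ± 0.09. Over the 6 probe sets of TH, TPH1, TPH2 and DBH the log2 fold changes ran from -0.09 to 0.10.

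The vesicular transporters were dim as well, and their probe sets differed in sign. SLC18A1, the form of endocrine cells, read 2.996 and 3.21 on the LNCap ERG arrays and 2.80 and 2.96 on the LNCap Vector arrays, a difference of 0.22 ± 0.12 with no overlap. SLC18A2, the form of monoamine neurons, read 3.52 and 3.49 against 3.65 and 3.71 at 1553328_PM_a_at, a difference of -0.18 ± 0.09 with no overlap. At its other probe set, 205857_PM_at, it read 3.15 and 3.08 against 3.11 and 3.20, a difference of -0.03 ± 0.09 with overlap. All 3 stayed under the background limit on every array.

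Of the oxidases, MAOA was bright and MAOB was not. At 204389_PM_at MAOA read 10.34 and 10.27 on the LNCap ERG arrays and 10.07 and 9.97 on the LNCap Vector arrays, a difference of 0.28 ± 0.09, or 1.22-fold. At 204388_PM_s_at it read 11.31 and 11.36 against 11.08 and 11.19, a difference of 0.20 ± 0.09. At the third, 212741_PM_at, it read 11.28 and 11.33 against 11.11 and 11.27, a difference of 0.11 ± 0.10. Both LNCap ERG arrays lay above both LNCap Vector arrays at all 3, at the last only by the margin between 11.277 and 11.272. The mean over the 3 probe sets was 0.20. With 1 array left out the log2 fold change was 0.23 to 0.33 at 204389_PM_at and 0.15 to 0.25 at 204388_PM_s_at. At 212741_PM_at it was 0.03 to 0.19, lowest without the first LNCap Vector array.

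MAOB, which lies next to MAOA on the X chromosome, read 3.67 and 3.73 on the LNCap ERG arrays and 3.59 and 3.69 on the LNCap Vector arrays at its brightest probe set, 204041_PM_at, a difference of 0.06 ± 0.09 with overlap. At 1561009_PM_at it read 3.40 and 3.21 against 3.28 and 3.22 (difference 0.05 ± 0.11), again with overlap. At 1561010_PM_a_at it read 3.31 and 3.07 against 2.93 and 3.01, where the groups did not overlap and the difference was 0.22 ± 0.12. None of these values left the range of unused genes.

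**Figure D2:**
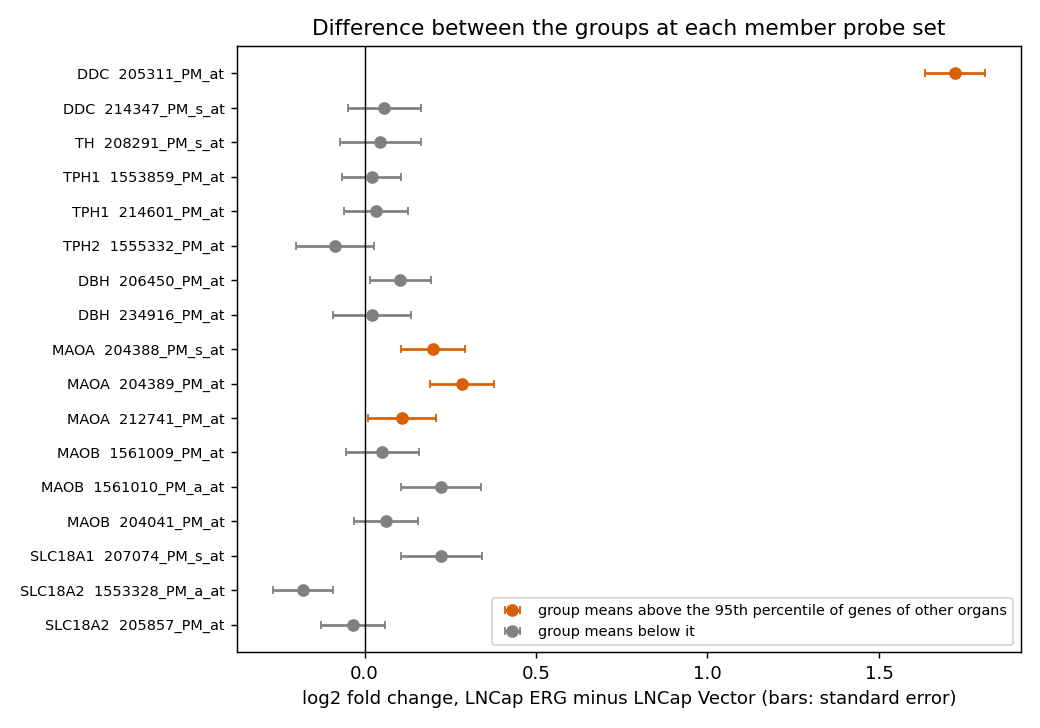
Log2 fold change, LNCap ERG minus LNCap Vector (x axis), of the 17 member probe sets (y axis), with bars for the standard error of limma's fit over all probe sets. Coloured points have both group means above the background limit and grey points both below. DDC stands at 1.72, the 3 MAOA probe sets at 0.11 to 0.28, and the grey points between -0.18 and 0.22.

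Over the 17 probe sets, 14 log2 fold changes were above 0 and 3 below, with a median of 0.06, where the median of all probe sets was 0.00. Both LNCap ERG arrays lay above both LNCap Vector arrays at 7 of the 17 and below them at 1, and the groups overlapped at 9. Among all probe sets 18.8% lay above and 19.4% below in this way. The 7 include the DDC probe set that the group was chosen by and the 3 probe sets of the gene MAOA. The rest are dim probe sets of DBH, MAOB and SLC18A1. They are thus not 7 separate genes, and nothing is read from their count beside these shares. Of the 13 dim probe sets, 10 log2 fold changes were above 0, 3 below, and the groups overlapped at 9. Arrays of the same group differed by 0.0017 to 0.26 at the members, and by a median of 0.11 between the LNCap ERG arrays and 0.12 between the LNCap Vector arrays over all probe sets. Among members outside DDC only the MAOA probe sets 204389_PM_at and 204388_PM_s_at lay over the level of unused genes with a difference above these medians. How many of all probe sets did so was not counted, so MAOA is not set apart by it. With 1 probe set per gene, at an adjusted p under 0.05, limma called 0.00511% of all genes higher and 0.00511% lower. The 1 gene called higher was DDC itself, so 1 of the 9 members was called higher and none lower. Since DDC was chosen by this contrast, nothing is read from that count, which was 0 in the fit over all probe sets and 0 without any 1 of the 4 arrays.

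**Figure D3:**
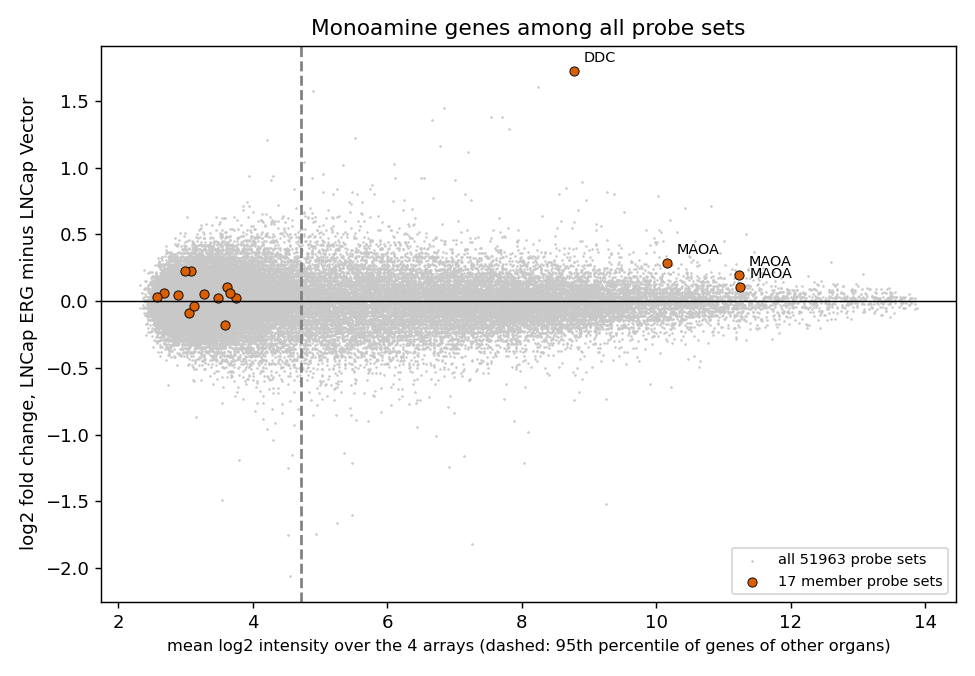
Log2 fold change, LNCap ERG minus LNCap Vector (y axis), against the mean log2 intensity over the 4 arrays (x axis) for all 51963 probe sets with a value on every array (grey) and the 17 member probe sets (coloured). A dashed line marks 4.72, the limit set by genes of other organs. The bright DDC probe set lies at 1.72, MAOA lies at the bright end between 0.11 and 0.28, and the other members lie within the dim cloud on the left.

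The other genes of monoamine metabolism were read from 6 lists. These held the enzymes of the cofactors, further breakdown, transporters, receptors, the competing routes of tryptophan and tyrosine, and decarboxylases and other genes related to DDC. Of 91 listed genes 79 were measured here, and limma called 0 higher and 0 lower at an adjusted p under 0.05 over all genes. At an unadjusted p under 0.05, limma gave 7 higher and 8 lower, or 8.86% and 10.1% of the 79, where the shares of all genes were 5.61% and 4.11%. The methods' t-test on the same values put 4 of the 79 higher and 10 of the 79 lower before adjustment. The shares of all genes were 4.38% and 3.76%. None of the 79 passed after Benjamini-Hochberg adjustment. The median log2 fold change of the 79 was -0.01 and that of all genes 0.01.

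The hydroxylases need tetrahydrobiopterin, and DDC needs pyridoxal phosphate. All 7 measured cofactor enzymes were of the tetrahydrobiopterin branch and all lay above the background limit in both groups. GCH1, the rate-limiting enzyme of tetrahydrobiopterin synthesis, read 8.42 and 8.53 on the LNCap ERG arrays and 8.67 and 8.68 on the LNCap Vector arrays, a difference of -0.20 ± 0.08 (limma adjusted p = 0.53). The groups did not overlap, but the difference did not pass. GCHFR, which inhibits that enzyme, had 0.12 ± 0.09 (limma adjusted p = 0.70). The next synthesis steps PTS and SPR had log2 fold changes of -0.09 and -0.07, the recycling enzymes QDPR, PCBD1 and PCBD2 had -0.04, 0.07 and 0.09, and their adjusted p-values were 0.75 to 0.92. The 3 hydroxylases that use the cofactor, TH, TPH1 and TPH2, were below that limit on every array.

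Among 14 measured genes of further breakdown, RNLS, a flavin-containing oxidase related to the monoamine oxidases, had the smallest p. It read 5.97 and 6.16 on the LNCap ERG arrays and 6.71 and 6.79 on the LNCap Vector arrays, a difference of -0.68 ± 0.10 (limma adjusted p = 0.24), with no overlap. Its adjusted p ran from 0.045 to 0.59 over the alternatives with all 4 arrays, and its second probe set, dim on every array, had a difference of -9.8e-05. AOC2, a copper-containing amine oxidase, had -0.34 ± 0.11 (limma adjusted p = 0.44), at 6.76 and 6.95 against 7.11 and 7.28. The list's median was 0.02, with 7 above 0 and 7 below.

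Among the 10 measured transporters the uptake routes of aromatic amino acids had the smallest p-values. SLC7A5, the light chain of the large neutral amino acid transporter, read 6.14 and 5.99 on the LNCap ERG arrays and 6.43 and 6.40 on the LNCap Vector arrays, a difference of -0.34 ± 0.09 (limma adjusted p = 0.37). SLC16A10, which carries aromatic amino acids, had -0.26 ± 0.08 (limma adjusted p = 0.41), at 6.59 and 6.56 against 6.82 and 6.84, and its dimmer probe set had -0.44. Neither gene's groups overlapped and neither passed. The list's median was -0.02, with 3 above 0 and 7 below.

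All 20 dopamine, serotonin and trace amine receptors were measured, and 1 of them lay above the background limit. HTR4, a serotonin receptor, had a difference of 0.23 ± 0.08 (limma adjusted p = 0.45) and DRD2, a dopamine receptor, -0.34 ± 0.11 (limma adjusted p = 0.45), and both were dim in either group. The other 3 DRD2 probe sets had 0.04 to 0.07, and the other HTR4 probe sets 0.03 and 0.09. The list's median was 0.03.

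Tryptophan and tyrosine also leave toward kynurenine and toward homogentisate. Of 19 measured genes of these routes 8 were above 0 and 11 below, with a median of -0.03. AADAT, a kynurenine aminotransferase that makes kynurenic acid, read 8.04 and 8.09 on the LNCap ERG arrays and 8.41 and 8.54 on the LNCap Vector arrays, a difference of -0.41 ± 0.09 (limma adjusted p = 0.33). AFMID, the formamidase that makes kynurenine, had -0.46 ± 0.09 (limma adjusted p = 0.32), at 4.68 and 4.58 against 5.16 and 5.01, with the LNCap ERG mean under 4.72. Both had no overlap, and neither passed.

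Of the genes listed as related to DDC in chemistry or function, most but not all of them decarboxylases, all 9 were measured. Their median log2 fold change was 0.00. HDC, the histidine decarboxylase that makes histamine and resembles DDC most, was dim at 3.10 and 3.03 against 2.94 and 3.18 (log2 fold change 0.00, adjusted p = 1.0). The glutamate decarboxylases GAD1 and GAD2, which make GABA, were dim with 0.19 (adjusted p = 0.54) and 0.09 (adjusted p = 0.92), and GADL1 with -0.18 (adjusted p = 0.65). The other GAD1 probe sets, dim too, had -0.21 with no overlap and -0.02 with overlap. CSAD, which makes hypotaurine, was bright with 0.25 ± 0.08 (limma adjusted p = 0.45), at 8.52 and 8.62 against 8.32 and 8.34, while its other probe sets, dim on every array, had -0.07 and 0.09. The polyamine genes ODC1, AMD1 and AZIN2 had -0.02, -0.13 and 0.12, and the sphingosine phosphate lyase SGPL1 had -0.06, with adjusted p-values of 0.69 to 0.97. Of the 9, 4 lay above the background limit in both groups. Since DDC was chosen by this contrast, nothing is read from its larger difference.

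Since DDC serves as a neuroendocrine marker, a list of other genes taken as such markers was read beside it. Of 20 listed 15 were measured, and limma called 0 higher and 0 lower. Before adjustment limma put 1 of the 15 higher and 1 lower at p under 0.05, or 6.67% each, beside 5.61% and 4.11% of all genes, and the methods' t-test put 1 higher and 0 lower, beside 4.38% and 3.76%. ENO2, neuron-specific enolase, read 8.21 and 8.17 on the LNCap ERG arrays and 7.85 and 7.97 on the LNCap Vector arrays, a difference of 0.28 ± 0.08 (limma adjusted p = 0.42). SYP, a vesicle membrane protein, had -0.45 ± 0.16 (limma adjusted p = 0.47) and was dim, as were CHGA, CHGB and INSM1. Leaving out 1 array gave SYP -0.68 to -0.22, smallest in size without the second LNCap Vector array. Of the listed genes only ENO2, DLL3 and GATA2 lay above the background limit. A place on the list does not make a gene particular to neuroendocrine cells. The list's median was -0.01, with 6 above 0 and 9 below.

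**Figure D4:**
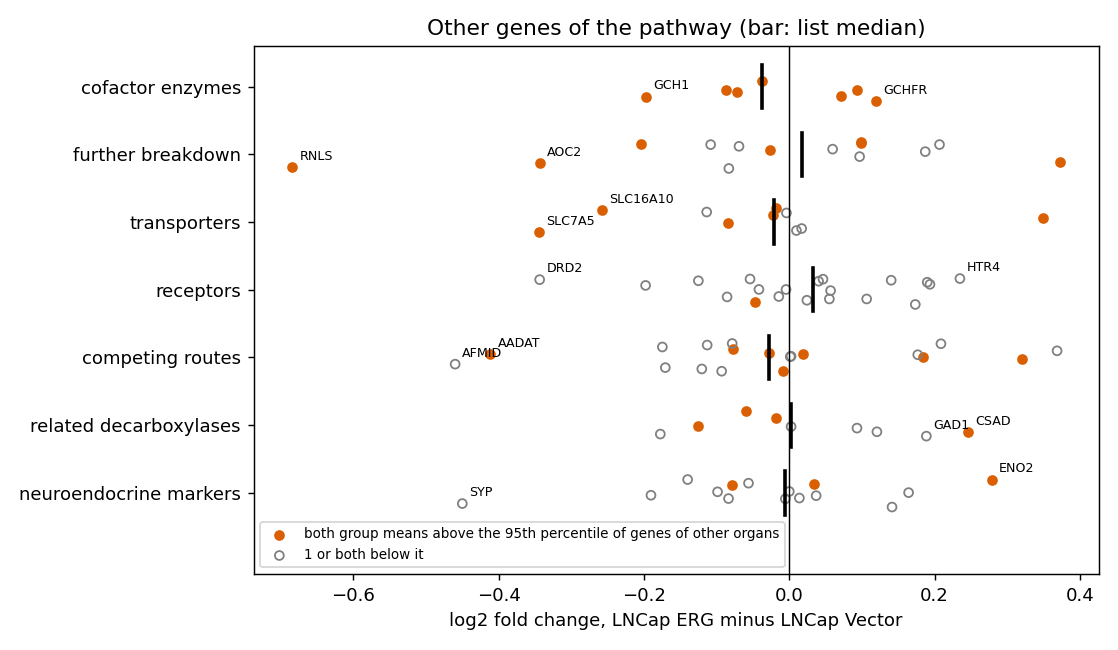
Log2 fold change, LNCap ERG minus LNCap Vector (x axis), of the genes of 7 lists (y axis, points spread within a list for sight), 1 probe set per gene. Filled points have both group means above the background limit, open points do not, thick bars are list medians and the labelled genes have the smallest p-values of their list. No gene passed an adjusted p of 0.05, and RNLS lies lowest at -0.68.

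The chromosomal neighbours of DDC were taken by place alone, 4 protein-coding genes on each side in the RefSeq table of GRCh38.p14, and 7 of the 8 were measured. GRB10, the next gene on one side and an adaptor that dampens insulin receptor signalling, read higher on both LNCap ERG arrays than on both LNCap Vector arrays at all 4 of its probe sets, without passing the test. At 209409_PM_at it read 10.38 and 10.48 on the LNCap ERG arrays and 9.62 and 9.66 on the LNCap Vector arrays, a difference of 0.79 ± 0.08 (limma adjusted p = 0.13), or 1.73-fold. The other 3 probe sets had 0.65, 0.52 and 0.40, all without overlap and all above the background limit. With 1 array left out it was 0.74 to 0.84, and the adjusted p ran from 0.0017 to 0.54 over the alternatives with all 4 arrays. GRB10 is known as an imprinted gene.

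COBL, an actin nucleator and the gene after GRB10, read 7.60 and 7.68 on the LNCap ERG arrays against 7.39 on both LNCap Vector arrays, a difference of 0.26 ± 0.08 (limma adjusted p = 0.43). Its dimmer probe set had 0.57 (standard error 0.09 in the fit over all probe sets), again without overlap. FIGNL1, on the other side of DDC, had -0.13 (adjusted p = 0.70) and, at its second probe set, 0.04. POM121L12 had 0.05, and IKZF1, ZPBP and VSTM2A, dim on every array, had 0.10, 0.00 and -0.05, with adjusted p-values of 0.86 to 1.0. No neighbour passed in this fit, while GRB10 did with trended and robust moderation and without dim features. Of the 7, limma gave an unadjusted p under 0.05 to 2 that were higher (GRB10 and COBL) and to 0 that were lower, or 28.6% and 0%, where the shares of all genes were 5.61% and 4.11%. With 7 genes a single gene moves such a share widely.

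**Figure D5:**
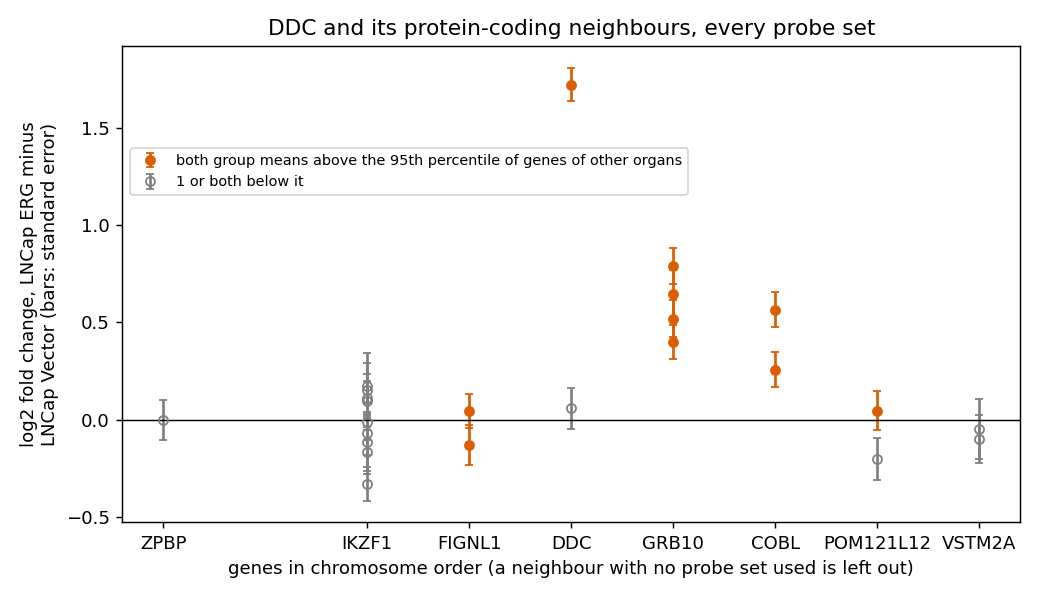
Log2 fold change, LNCap ERG minus LNCap Vector (y axis, bars are standard errors of the fit over all probe sets), of every probe set of DDC and its measured neighbours, in chromosome order (x axis, not to distance). Filled points have both group means above the background limit. DDC lies at 1.72 and, for the dim probe set, 0.06, GRB10 at 0.40 to 0.79 and COBL at 0.26 and 0.57, with the probe sets of the other genes between -0.33 and 0.17.

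The genes most like DDC over the 4 arrays were found by the root mean square difference of log2 values centred on each gene's own mean. They were BCHE (0.13), TARP (0.18), UGT2B17 (0.23), SCNN1G (0.28) and ST8SIA4 (0.28), whose log2 fold changes ran from 1.16 to 1.60. With 4 arrays in 2 groups this measure mostly reads the size of the difference between the groups. For MAOA at its brightest probe set the nearest were KIAA1143, IKBKB, SLC22A9, GATA2-AS1 and MRPS27, at 0.0057 to 0.011. Many genes are near at so small a change, so the order of these 5 carries little.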

How the data were processed

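Expression was read on Affymetrix GeneChip arrays. The authors used dChip for the scans, RMAexpress for normalization and Multiexperiment Viewer for annotation. No version or genome build is stated. The deposited intensity of each probe set was taken as linear, since array medians were 14.0 to 14.4 with maxima of 14962 to 15344, and converted to log2. The table has 51965 probe sets, of which 2 lacked a value and were dropped. By GEO's annotation of the platform 39466 carry a single gene symbol, 838 more than 1 and 11661 no symbol.

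The test was limma's moderated linear model (limma 3.58.1, R 4.3.3), fitted over all 51963 probe sets, which gave the members' differences and standard errors, and over 19583 genes, each at its brightest probe set, for the lists, with Benjamini-Hochberg adjustment over all of them. The fits had 2 residual degrees of freedom. The members and gene lists were chosen with earlier results of these data known. Named were every member and the 2 genes of each list with the smallest p. All cofactor enzymes, genes listed as related to DDC, and neighbours were named too, as were the 5 genes most like DDC and MAOA. On simulated arrays with 200 changed genes the gene fit, over 19583 genes, found 80.2% of log2 changes of 1 and 98.8% of those of 2, with 4.21% false calls. The real fit made 2 calls, so these rates do not give its power. Tables were summarised in Python 3.11.15 with pandas 2.3.3, and plots drawn with matplotlib 3.10.9. Sequences are RefSeq's, from the promoter table of GRCh38.p14. Arrays have no read depth, and the number of arrays limits the precision. The alternatives were trended and robust moderation, no dim features, the mean of probe sets, plain probe sets, quantile normalization again, housekeeping centring, a block for replicate number, all probe sets together, the methods' t-test, probe sets naming 1 gene, and each array left out.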

Additional observations from a re-analysis of the deposited data

How the results depend on the processing

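The log2 fold change of DDC at its brightest probe set was 1.72 to 1.73 in each setting that kept that probe set and all 4 arrays, and 1.70 to 1.75 with single arrays left out. As the mean of its probe sets it was 0.89, since the dim probe set had 0.06. MAOA had 0.11 at its brightest probe set, 0.20 as the mean of 3, and 0.029 to 0.19 with single arrays left out. Of the members 1 gene was called higher, and 0 with the replicate block, with the methods' t-test, with every probe set tested together and without any 1 of the 4 arrays (0 to 0). Over all probe sets 0 member probe sets were called, and 1 with trended and robust moderation. Of the pathway genes 0 were called lower, and 1, RNLS, with trended and robust moderation and without dim features. GRB10 was called higher under the same pair of settings. With single arrays left out the counts of called member probe sets and pathway genes were 0. There the spread rests on 1 residual degree of freedom, with the single array left in its group taken to vary like the other group's. The sign turned with 1 array left out at TH, TPH2, the second probe sets of DDC, TPH1 and SLC18A2, the brighter probe set of DBH and 1 of MAOB, all dim. The cause at these members was not tested. KLK2, ACP3 and CSAD turned sign with plain probe sets (0.21, -0.22 and -0.07). That setting reads each of them at another probe set, dim in both groups and with overlap. GAD1 turned sign as the mean of its probe sets (-0.01), all of which were dim. The replicate numbers pair nothing known: same-numbered arrays deviated together with r = 0.07 over all probe sets, 2 pairs are too few to decide, and with the replicate block no gene passed.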

Other observations

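Among the luminal prostate markers used to check the cell line, ACP3, the prostatic acid phosphatase, read 6.65 and 6.58 on the LNCap ERG arrays and 5.97 and 6.13 on the LNCap Vector arrays, a difference of 0.56 ± 0.09 (limma adjusted p = 0.26), and its other probe sets, dim on every array, had 0.07 and -0.22. KLK2, a prostate kallikrein, read 11.26 and 11.12 against 11.52 and 11.44, a difference of -0.29 ± 0.09 (limma adjusted p = 0.43). Its other probe sets had -0.30, -0.07 and 0.21, the last dim in both groups and with overlap. Among markers of other cell types COL1A1, a fibrillar collagen chain, had 0.38 ± 0.08 (limma adjusted p = 0.35) at its brightest probe set, at 8.79 and 8.69 against 8.39 and 8.33. At 202310_PM_s_at, above the background limit in both groups, it had 0.32 with no overlap. The remaining COL1A1 probe sets had -0.49 to 0.17, each with 1 or both group means under that limit. PECAM1, an endothelial adhesion protein, was dim at all 5 probe sets, with 0.32 ± 0.13 (limma adjusted p = 0.53) at the brightest, where leaving out 1 array gave 0.15 to 0.49, and with 0.08, 0.04, 0.03 and -0.14 at the others. None of these passed.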
